A study of Mus musculus with 4 samples.

Results

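The genes S100a4, S100a6, S100a8, S100a9, S100a10, S100a11, Lgals1 and Lgals3 were followed through the leukocyte types of the pancreas and the T cells of the pancreatic lymph node. They were chosen by symbol, and each of the 8 symbols matched 1 of the 31053 genes in the feature lists. There were 4 mouse single-cell libraries, each a pool of several animals and each the only library of its group. The pancreas pair held flow-sorted CD45+ cells of pre-diabetic females at 12 weeks of age, with 4 mice per group. The lymph node pair held magnetically separated CD3 T cells of females at 8 weeks, with 5 mice per group. All animals, controls included, carried floxed Ocab alleles (Ocabfl/fl), and the CD4-Cre libraries (Ocabfl/fl.CD4-Cre) also carried Cre recombinase under the Cd4 promoter, which is active during T cell development, so that deletion can reach CD8 as well as CD4 T cells. Ocab is an older name of Pou2af1, a transcriptional coactivator best known from B cells. Tissue, age and cell selection differ together between the pairs, so genotypes were set side by side only within a tissue.

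S100 proteins are small EF-hand calcium-binding proteins that mostly work as dimers. S100a8 and S100a9 pair to form calprotectin, a major protein of the neutrophil cytosol that is released in inflammation and is known to bind Tlr4 and Ager. S100a4 binds non-muscle myosin and is tied to cell motility, S100a10 forms a complex with annexin A2, S100a11 binds annexin A1, and S100a6 is also known as calcyclin. Galectin-1 (Lgals1) and galectin-3 (Lgals3) bind beta-galactosides on surface glycoproteins, and activated lymphocytes and macrophages are known to make both.

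The 6 S100 members lie on mouse chromosome 3 in GRCm38, and all 8 members are protein-coding. S100a4 (ENSMUSG00000001020, chr3:90603771-90606045, plus strand) ends 6.84 kb before S100a6 (ENSMUSG00000001025, chr3:90612882-90624181, plus strand). S100a8 (ENSMUSG00000056054, chr3:90668978-90670035, plus strand) and S100a9 (ENSMUSG00000056071, chr3:90692632-90695721, minus strand) follow and are 22.6 kb apart. S100a11 (ENSMUSG00000027907, chr3:93520488-93526287) and S100a10 (ENSMUSG00000041959, chr3:93555080-93564643) form a separate neighbouring pair. Lgals1 (ENSMUSG00000068220) is at chr15:78926725-78930465 and Lgals3 (ENSMUSG00000050335) at chr14:47367751-47386160. RefSeq promoters (GRCm38.p6) were matched for 6 of the 8 members, all but S100a10 and Lgals1. The 4 below are shown because these neighbouring genes had different cell type patterns: S100a8 and S100a9 were counted mainly in neutrophils, S100a4 was not detected there, and S100a6 was detected in every gate. Each line runs 5′ to 3′ on the gene's own strand, from 150 bases before the annotated start to 30 bases from it, and capitals mark the motif TATAAA.
S100a4, chr3:90603620-90603799, plus strand: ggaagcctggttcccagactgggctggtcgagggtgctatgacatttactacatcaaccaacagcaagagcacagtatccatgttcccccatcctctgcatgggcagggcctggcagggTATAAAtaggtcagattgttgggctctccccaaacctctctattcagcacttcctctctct
S100a6, chr3:90612744-90612923, plus strand: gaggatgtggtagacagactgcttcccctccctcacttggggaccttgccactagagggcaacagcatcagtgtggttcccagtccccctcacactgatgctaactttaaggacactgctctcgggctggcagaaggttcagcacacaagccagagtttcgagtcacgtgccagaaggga
S100a8, chr3:90668921-90669100, plus strand: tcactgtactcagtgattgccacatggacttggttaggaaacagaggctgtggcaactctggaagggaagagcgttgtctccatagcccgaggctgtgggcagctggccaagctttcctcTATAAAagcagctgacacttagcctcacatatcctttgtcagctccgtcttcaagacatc
S100a9, chr3:90695692-90695871, minus strand: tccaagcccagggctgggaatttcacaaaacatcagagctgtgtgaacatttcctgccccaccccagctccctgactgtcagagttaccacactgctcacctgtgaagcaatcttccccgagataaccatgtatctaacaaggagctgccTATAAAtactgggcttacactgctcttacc
TATAAA, searched on both strands of the 300-base RefSeq windows (250 bases before to 50 after the start), was found in 13.6% of 32851 promoters. Among the members it began 31 bases before the annotated start of S100a4, 30 bases before that of S100a8 and at the annotated start of S100a9. The windows of S100a6, S100a11 and Lgals3 held no such letters.

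The libraries listed 3059 to 6963 barcodes with 14851217 to 32798133 UMIs (unique molecular identifiers, the counted molecules), and 2843 to 6245 barcodes were kept, with medians of 3598 to 4606 UMIs. Any 2 libraries shared 21 to 70 barcode sequences. Barcodes were sorted into gates by marker genes that include no member, and UMIs were summed over a gate and expressed as CPM, the gene's counts over all counts of that gate on the customary scale. In the pancreas the neutrophil gate held 135 control and 76 CD4-Cre barcodes, monocytes 77 and 76, macrophages 121 and 101, NK cells 213 and 288, CD4-only T cells 892 and 2006, CD8-only T cells 443 and 667, and B cells 905 and 1350. The lymph node gates held 1253 and 2647 CD4-only and 713 and 1470 CD8-only T barcodes, and 0 neutrophils and 0 monocytes. The leading genes of each gate included its own markers (Retnlg, Ace and Ear2, C1qa to C1qc, Ncr1, Cd4, Cd8a and Cd8b1, Cd79a), whose lead the gating itself favoured. Among the leading pancreas genes not used for gating were Ngp and Lcn2 in neutrophils, Fn1 and Lyz1 in monocytes and Apoe in macrophages. Klra4 and Gzma were among those of NK cells, Cd40lg of CD4-only T cells, Gzmk of CD8-only T cells and Iglc2 of B cells. The leading genes of the pancreas CD8-only gate also included the exocrine genes Ctrb1, Cela2a, Cela1 and Prss2. Intervals in parentheses are exact 95% intervals of counting error. They do not cover the spread between mice or preparations, so with 1 library per group no difference between genotypes has a replicate check or a test. A sum over a gate cannot tell fewer expressing cells from less RNA per cell.

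S100a8 and S100a9 were neutrophil transcripts: the neutrophil gate held 94.8% of the UMIs of both genes in control and 73.0% in CD4-Cre, and barcodes that met more than 1 class (mixed) held 5.08% and 26.6%. S100a8 stood at 75493 CPM (74646 to 76346) in control and 62532 CPM (61383 to 63696) in CD4-Cre neutrophils. S100a9 stood at 110751 CPM (109726 to 111784) and 96050 CPM (94625 to 97491). Together they made up a median of 14% of the UMIs of a control neutrophil barcode and 12.2% of a CD4-Cre one, with 10th to 90th percentiles of 2.82% to 27.7% and 3.59% to 26.0%. S100a9 was 59.5% of the sum of both genes in control and 60.6% in CD4-Cre neutrophils, so the balance of the calprotectin subunit transcripts was nearly equal in the 2 libraries. In the other 6 pancreas gates S100a8 was at 4.63 CPM or lower and S100a9 at 10.2 CPM or lower. Both upper values came from CD4-Cre B cells, where 1 barcode held 69 of the 83 UMIs of both genes and also met the neutrophil marker minimum. The monocyte gate was mostly non-classical (more UMIs of Ace, Ear2, Treml4 and Eno3 than of Ly6c2, Vcan, Chil3 and F13a1). Non-classical barcodes were 62 of 77 in control and 54 of 76 in CD4-Cre, and classical ones, the reverse, 15 and 16. Some barcodes that met the neutrophil and the monocyte minimum were mixed, so the gate does not stand for all monocytes.

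**Figure D1:**
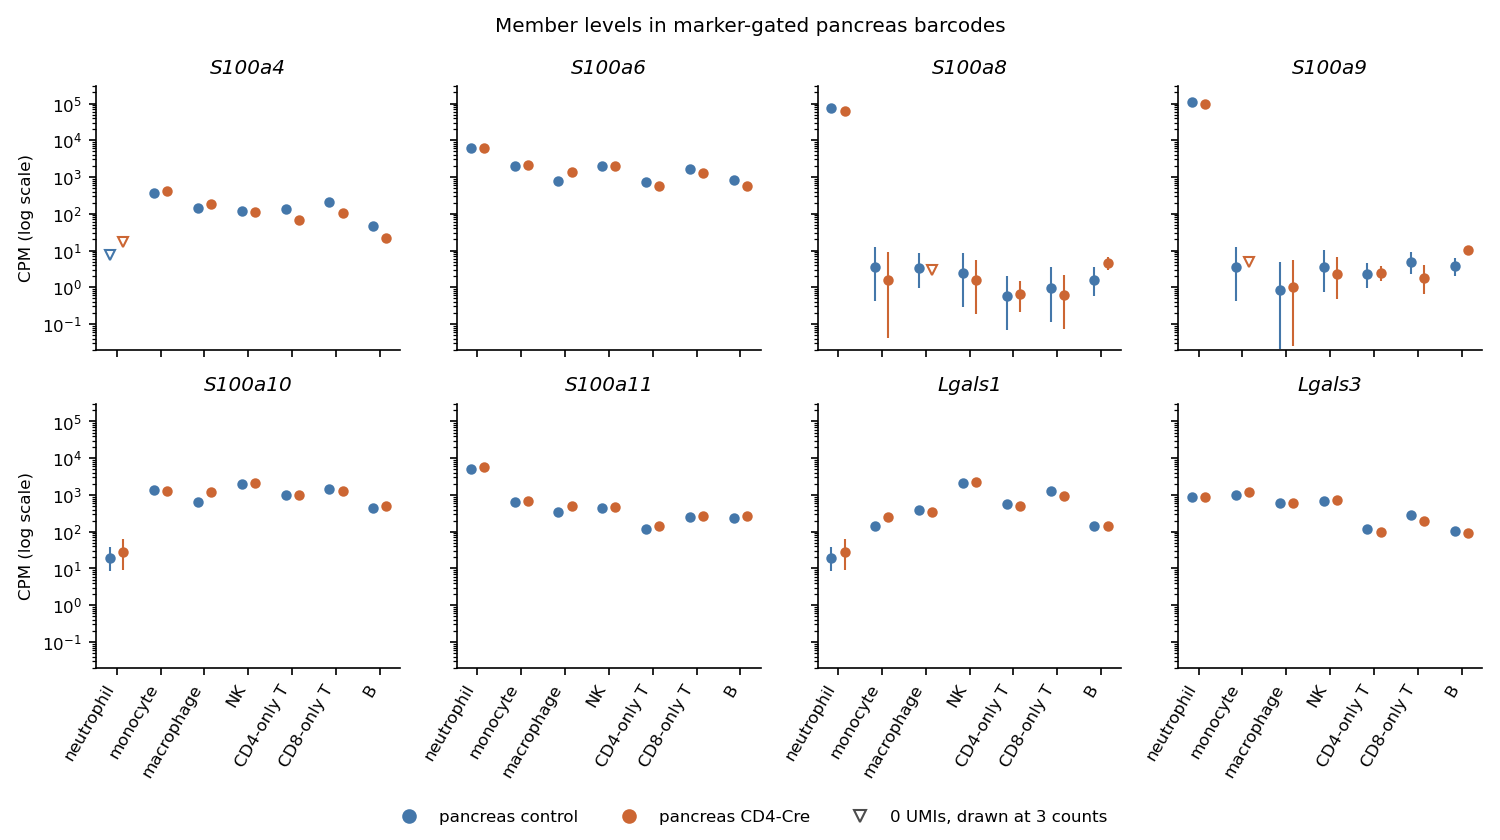
Level of each member in the 7 pancreas gates, in CPM on a log axis, with 1 point per library (blue control, orange CD4-Cre), bars for exact 95% Poisson intervals (often smaller than the point) and open triangles at 3 counts where a gate had 0 UMIs. S100a8 and S100a9 are at 62532 CPM or more in neutrophils and at most 10.2 CPM in the other gates, S100a4 has 0 UMIs in neutrophils, and S100a10 and Lgals1 are at 19.9 to 27.7 CPM there.

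A few S100a8 and S100a9 UMIs were found in T barcodes, nearly all of them 1 per barcode. Of 892 control CD4-only T barcodes 10 held any UMI of these genes, each exactly 1. In CD4-Cre 19 of 2006 did, 18 of them with 1 UMI and the other with 6. CD8-only T barcodes with any numbered 12 of 443 in control and 8 of 667 in CD4-Cre, all with 1 UMI. B barcodes, a class that should lack these genes, held any in 18 of 905 and 15 of 1350.

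In CPM of both genes together, CD4-only T cells had 2.85 in control and 3.05 in CD4-Cre, and CD8-only T cells 5.78 and 2.43. B cells had 5.28 and 14.8, and NK cells 5.98 and 3.86. S100a9 was 80.0% of the pair in control CD4-only T cells (8 of 10 UMIs, 44.4% to 97.5%) and 79.2% in CD4-Cre (57.8% to 92.9%), against about 60% in neutrophils, and both intervals include the neutrophil value of their library. After thinning each barcode to 1000 UMIs, an S100a9 UMI was left in 0.225% (0.0273% to 0.810%) of control and 0.350% (0.141% to 0.719%) of CD4-Cre CD4-only barcodes. The CD8-only shares were 0.227% (0.00574% to 1.26%) and 0.15% (0.00381% to 0.835%), and the B cell shares 0.555% (0.180% to 1.29%) and 0.224% (0.0462% to 0.652%). These shares rest on 1 to 7 T barcodes and 3 to 5 B barcodes per gate and library. A difference between T and B cells was not detectable at this depth, and the source of the T cell UMIs, carried-over RNA or expression, was not tested. Unthinned S100a9 shares were 0.897% and 0.748% of CD4-only barcodes (median depth 3453.5 and 3476 UMIs), 2.26% and 0.900% of CD8-only barcodes (3803 and 3975 UMIs), and 1.55% and 0.741% of B barcodes (3562 and 3420 UMIs).

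Other neutrophil genes were counted in the same T barcodes. Retnlg, a neutrophil secretory gene with 4787 and 1826 UMIs in the neutrophil gates, had 0 and 1 UMIs in CD4-only T cells and 0 in CD8-only T cells of both libraries. S100a8 and S100a9 together had 75013 and 28614 UMIs in those neutrophil gates, far more than Retnlg. The other panel genes were counted in CD4-only T cells of both libraries, except Csf3r in CD4-Cre. There Il1b had 24 and 81 UMIs, Cxcr2 4 and 11, Csf3r 2 and 0, and G0s2 1 and 1. In CD8-only T cells Il1b had 14 and 1 UMIs, Cxcr2 1 and 2, Csf3r 2 and 0, and G0s2 1 and 2. In the lymph node, where no neutrophil was gated, CD4-only T cells held 1 S100a8 or S100a9 UMI in control and 4 in CD4-Cre, and CD8-only T cells 3 and 5. In CPM of both genes these were 0.161 and 0.338 in CD4-only and 0.725 and 0.606 in CD8-only T cells, each below the pancreas value of the same gate and genotype.

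Among the 7 gates S100a4 was highest in monocytes, and it was not detected in neutrophils. In control the levels ran from monocytes at 365 CPM (317 to 419) through CD8-only T cells at 204 (185 to 225), macrophages at 146 (125 to 170), CD4-only T cells at 132 (120 to 145) and NK cells at 118 (96.2 to 144) to B cells at 46.7 (40.1 to 54.1). The intervals of macrophages and CD4-only T cells overlapped, as did those of CD4-only T and NK cells. In CD4-Cre the order was monocytes at 406 CPM (357 to 460), macrophages at 180 (154 to 208), NK cells at 113 (95.8 to 133), CD8-only T cells at 105 (94.6 to 117), CD4-only T cells at 66.8 (61.2 to 72.8) and B cells at 22.1 (18.4 to 26.3), and only NK and CD8-only T cells overlapped among these neighbours. Both T gates thus stood lower in the order in CD4-Cre. Outside these gates, dendritic cells had 429 CPM (390 to 470) in control and 211 CPM (186 to 238) in CD4-Cre, above monocytes with an overlapping interval in control and below them in CD4-Cre, and barcodes of no class had 407 and 369 CPM. Neutrophils held 0 UMIs of 402768 in control and 0 of 180437 in CD4-Cre. The upper limits of their exact intervals were 9.16 CPM in control and 20.4 CPM in the smaller CD4-Cre gate. The CD4-Cre interval overlapped that of B cells.

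S100a6 was highest in neutrophils, at 6356 CPM (6112 to 6607) in control and 6207 CPM (5849 to 6582) in CD4-Cre. NK cells (2052 and 2031 CPM) and monocytes (2016 and 2149 CPM) came next, with overlapping intervals in each library. CD8-only T cells had 1643 and 1323 CPM. The lowest levels in control were those of B cells (806 CPM), macrophages (772) and CD4-only T cells (750), whose intervals overlapped in that order. In CD4-Cre macrophages were at 1345 CPM and overlapped CD8-only T cells instead, while B cells (556) and CD4-only T cells (553) stayed lowest.

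S100a10, the partner of annexin A2, was low in neutrophils and high elsewhere. Neutrophils held 8 UMIs in control (19.9 CPM, 8.58 to 39.1) and 5 in CD4-Cre (27.7 CPM, 9.0 to 64.7). NK cells were highest at 2040 and 2065 CPM. In control CD8-only T cells (1472 CPM) and monocytes (1324) had overlapping intervals, followed by CD4-only T cells (977), macrophages (642) and B cells (440). In CD4-Cre monocytes (1312 CPM), CD8-only T cells (1269) and macrophages (1189) overlapped in turn, above CD4-only T cells (986) and B cells (486). In the lymph node S100a10 had a UMI in 78.5% and 76.2% of CD4-only and in 87.8% and 86.1% of CD8-only barcodes.

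Among the 7 gates S100a11 was highest in neutrophils at 5048 CPM (4831 to 5272) in control and 5958 CPM (5607 to 6325) in CD4-Cre, and lowest in CD4-only T cells at 120 and 143 CPM. Between them stood monocytes (627 and 694 CPM), NK cells (446 and 472), macrophages (343 and 489), CD8-only T cells (244 and 267) and B cells (239 and 260). NK cells and macrophages overlapped in CD4-Cre but not in control, and CD8-only T and B cells overlapped in both libraries. Dendritic cells, outside the 7 gates, had 1333 and 1189 CPM. S100a10 and its close neighbour S100a11 therefore had opposite extremes, the first lowest and the second highest in neutrophils.

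Lgals1, the gene of galectin-1, was led by the cytotoxic lymphocytes. NK cells had 2102 CPM (2005 to 2203) in control and 2196 CPM (2116 to 2278) in CD4-Cre, followed by CD8-only T cells with 1244 and 911 and CD4-only T cells with 562 and 501. Macrophages (390 and 342 CPM), monocytes (147 and 257) and B cells (142 and 144) were lower, and the intervals of monocytes and B cells overlapped in control only. Neutrophils held 8 and 5 UMIs, the same counts as S100a10.

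Lgals3, the gene of galectin-3, was led by myeloid cells. Monocytes had 1024 CPM (942 to 1111) in control and 1207 CPM (1122 to 1297) in CD4-Cre, and neutrophils 891 (802 to 988) and 887 (755 to 1035). These neighbours overlapped in control but not in CD4-Cre. NK cells (678 and 740 CPM), macrophages (587 and 623) and CD8-only T cells (292 and 193) followed, and CD4-only T cells (117 and 101) and B cells (103 and 92.1) were lowest with overlapping intervals. The galectins thus differed most in monocytes and neutrophils, which held the highest levels of Lgals3 and, with B cells, the lowest of Lgals1, while macrophages were in the middle of both orders.

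The genotypes were then compared gate by gate, as log2 of CPM in CD4-Cre over CPM in control. A member was counted where it had at least 50 UMIs over both libraries, and called past the fold at 1.5-fold or more in CPM. Because a difference has no replicate check, each count of members is read against the share of all genes past the same fold in the same gate.

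**Figure D2:**
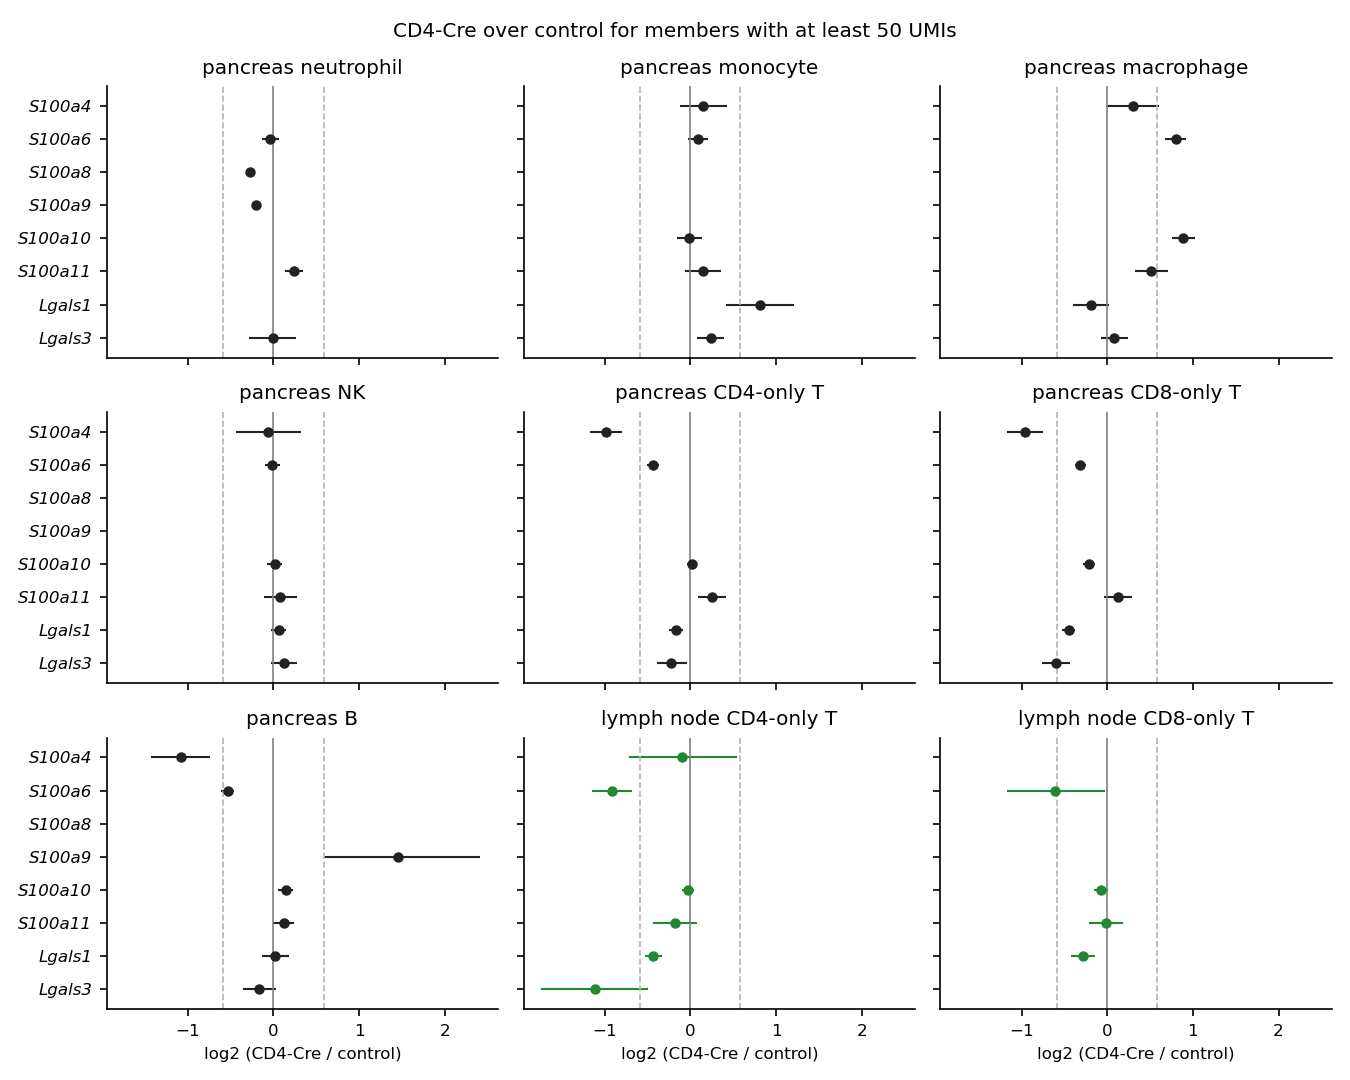
Log2 ratio of CD4-Cre over control for each member with at least 50 UMIs in the gate (points), with exact 95% binomial counting intervals (bars); dashed lines mark 1.5-fold, black points are pancreas and green points lymph node. S100a4 lies at -0.98, -0.96 and -1.08 in pancreas CD4-only T, CD8-only T and B cells, S100a6 and S100a10 lie at 0.80 and 0.89 in macrophages, and the NK panel lies near 0 throughout.

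S100a4 was the member with the largest genotype difference in pancreas T cells, about 2-fold lower in CD4-Cre in both gates. In CD4-only T cells it went from 132 to 66.8 CPM (464 and 525 UMIs), which is a log2 ratio of -0.98 (-1.17 to -0.80). In CD8-only T cells it went from 204 to 105 CPM (424 and 347 UMIs), which is a log2 ratio of -0.96 (-1.16 to -0.75). The counting intervals of the 2 libraries do not overlap in either gate.

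The other members differed less. In CD4-only T cells S100a6 had a log2 ratio of -0.44 (-0.51 to -0.37), Lgals3 of -0.22 (-0.39 to -0.04) and Lgals1 of -0.16 (-0.24 to -0.09), while S100a10 was at 0.01 (-0.04 to 0.07) and S100a11 at 0.25 (0.09 to 0.42). In CD4-only T cells 1 of 6 counted members was past 1.5-fold lower, against 3.33% of 9086 genes. The members' median was -0.19 and that of all counted genes 0.03. In CD8-only T cells Lgals3 had a log2 ratio of -0.60 (-0.76 to -0.44), just past the 1.5-fold line, Lgals1 of -0.45 (-0.53 to -0.37), S100a6 of -0.31 (-0.38 to -0.25) and S100a10 of -0.21 (-0.28 to -0.15). S100a11 was at 0.13 (-0.03 to 0.29). In CD8-only T cells 2 of 6 counted members, S100a4 and Lgals3, were past 1.5-fold lower, against 5.49% of 7681 genes, and the medians were -0.38 for the members and -0.02 for all counted genes. Lgals3 was past the fold in 6 of 12 alternative settings, with ratios of -0.96 to -0.55, while S100a4 was past it in 12 of 12 in both T gates. The exocrine marker sum in that gate was 87.3 CPM in control and 2407 CPM in CD4-Cre, with 6 of 6 markers detected in each library, and its part in the ratios was not tested.

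The CD8-only libraries differed in markers of T cell state. Activated T cell genes summed to 20073 CPM in control and 12624 CPM in CD4-Cre CD8-only T cells and to 2166 and 1759 CPM in CD4-only T cells. Barcodes were divided by markers other than the members into a naive-marker, an activated-marker, a Foxp3 (regulatory T cell gene) and an other stratum. Activated-marker barcodes were 63.2% of control and 40.3% of CD4-Cre CD8-only T cells, and naive-marker barcodes 10.4% and 21%. In CD4-only T cells the strata were closer, with 20.9% and 19.7% activated-marker, 58.5% and 58.9% naive-marker and 7.40% and 6.48% Foxp3 barcodes. S100a4, S100a6 and Lgals3 were near absent from naive-marker CD4-only T cells: 7 and 5 UMIs for S100a4, 39 and 35 for S100a6, and 2 and 7 for Lgals3. S100a10 was at 417 and 471 CPM and Lgals1 at 82.3 and 80.0 CPM there.

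Within the activated-marker CD4-only stratum S100a4 was at 376 CPM in control (297 UMIs in 186 barcodes) and 170 CPM in CD4-Cre (289 UMIs in 396 barcodes), which is a log2 ratio of -1.14 (-1.38 to -0.90). A UMI of S100a4 was found in 44.6% (37.3% to 52.1%) of those control barcodes and 30.3% (25.8% to 35.1%) of those CD4-Cre barcodes. The S100a4 difference was therefore as large inside this stratum as in the whole gate. In this stratum the other members were within 1.5-fold: Lgals1 was at 1308 and 1307 CPM (log2 ratio -0.00), S100a6 at 1529 and 1363 (-0.17, -0.27 to -0.07), S100a10 at -0.10 (-0.20 to -0.01), Lgals3 at 0.11 (-0.13 to 0.36) and S100a11 at 0.36 (0.11 to 0.61). In Foxp3 barcodes S100a4 was at 276 and 211 CPM (-0.39, -0.76 to -0.01), S100a6 at 2505 and 1991 (-0.33, -0.45 to -0.21) and Lgals1 at 1494 and 1188 (-0.33, -0.49 to -0.17). The other stratum (118 and 298 barcodes) had 3 members past 1.5-fold lower. There S100a4 was at 111 and 67.3 CPM (-0.72, -1.22 to -0.21). S100a6 was at 882 and 500.1 CPM (-0.82, -1.0 to -0.64), and Lgals3 at 249.7 and 141 CPM (-0.82, -1.16 to -0.48), while Lgals1 was at 447 CPM in control and 446.5 CPM in CD4-Cre.

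In the activated-marker CD8-only stratum S100a4 was at 298 and 204 CPM (390 and 305 UMIs), which is a log2 ratio of -0.54 (-0.77 to -0.32), smaller than the -0.96 of the whole gate and short of 1.5-fold. The shares of barcodes with an S100a4 UMI were 47.9% (41.9% to 53.9%) and 37.5% (31.7% to 43.6%). S100a6, at 2374 and 2411 CPM, had a log2 ratio of 0.02 (-0.05 to 0.09) in place of -0.31, Lgals3 of -0.23 (-0.41 to -0.06) in place of -0.60, and Lgals1 of -0.19 (-0.27 to -0.11) in place of -0.45. S100a11 was at 310 and 421 CPM there, which is a log2 ratio of 0.44 (0.26 to 0.62). Inside this stratum the ratios of S100a4, S100a6, Lgals1 and Lgals3 were nearer to 0 than in the whole gate, and that of S100a11 was further from it. In the other stratum (108 and 248 barcodes) Lgals3 was at 101 and 58.5 CPM (-0.78, -1.31 to -0.24), further from 0 than in the whole gate. Lgals1 had the opposite sign there, at 345 and 453 CPM (0.39, 0.15 to 0.64). S100a6 was at -0.01 (-0.24 to 0.23) and S100a4 had 14 and 27 UMIs (-0.26, -1.24 to 0.79). The part of the strata's sizes in the ratios of the whole gate was not tested.

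**Figure D3:**
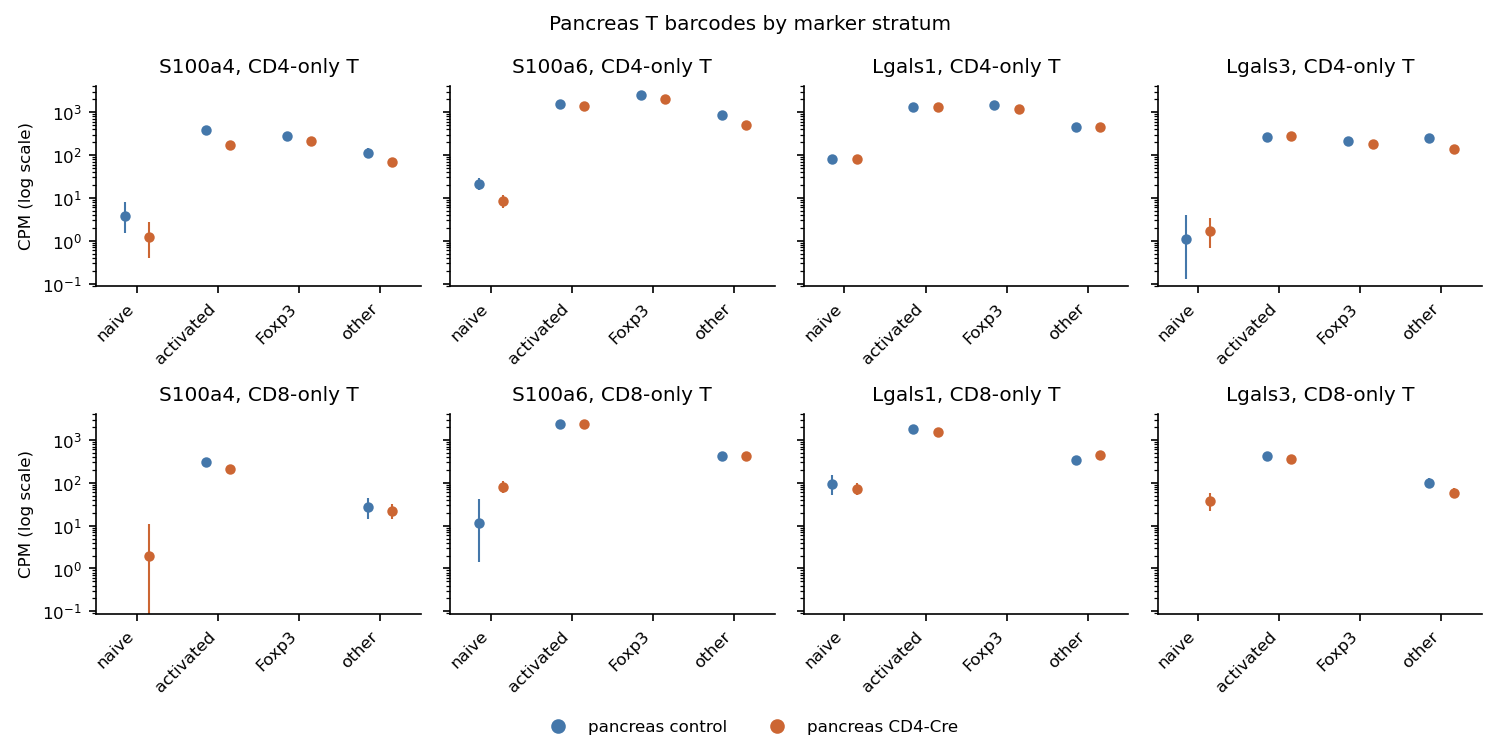
Level of S100a4, S100a6, Lgals1 and Lgals3 in marker strata of pancreas CD4-only (top) and CD8-only (bottom) T barcodes, in CPM on a log axis with exact 95% Poisson intervals, blue for control and orange for CD4-Cre; strata under 20 barcodes in a library (Foxp3 in CD8-only) and levels of 0 UMIs are not drawn. S100a4 in activated-marker CD4-only barcodes is at 376 CPM in control and 170 CPM in CD4-Cre, while Lgals1 is at 1308 and 1307 CPM in the same barcodes.

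Macrophages differed in the other direction. S100a6 was at 772 CPM (722 to 824) in control and 1345 CPM (1275 to 1419) in CD4-Cre, which is a log2 ratio of 0.80 (0.68 to 0.92). S100a10 was at 642 CPM (597 to 689) and 1189 CPM (1122 to 1258), which is a log2 ratio of 0.89 (0.76 to 1.02). S100a11 was at 343 and 489 CPM (0.51, 0.32 to 0.71), S100a4 at 146 and 180 (0.30, -0.01 to 0.61), Lgals3 at 587 and 623 (0.09, -0.07 to 0.24) and Lgals1 at 390 and 342 (-0.19, -0.39 to 0.02). In macrophages 2 of 6 counted members were past 1.5-fold higher, against 4.99% of 4813 genes, and 0 of 6 were past it lower, against 8.23%. The members' median was 0.41. Macrophage marker genes summed to 19011 CPM in control (10 of 10 with a UMI) and 13696 CPM in CD4-Cre (9 of 10), and monocyte markers to 1270 CPM (5 of 8) and 1460 CPM (6 of 8). The part of that difference in gate makeup was not tested.

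In monocytes Lgals1 was at 147 CPM (83 UMIs) in control and 257 CPM (159 UMIs) in CD4-Cre, which is a log2 ratio of 0.81 (0.42 to 1.21). It was the 1 member of 6 past 1.5-fold higher in monocytes, against 4.01% of 3115 genes. The other 5 had log2 ratios of -0.01 (S100a10) to 0.24 (Lgals3). With 1 more marker required for the gate, S100a10 was at 0.79 and Lgals1 at 1.15. Monocyte markers summed to 2691 and 2198 CPM, with 8 of 8 detected in each library, and macrophage markers to 466 and 482 CPM, with 7 and 8 of 10 detected, and their part was not tested.

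S100a4 was lower in CD4-Cre B cells too. It was at 46.7 CPM (177 UMIs) in control and 22.1 CPM (124 UMIs) in CD4-Cre, which is a log2 ratio of -1.08 (-1.42 to -0.74). In B cells 1 of 7 counted members was past 1.5-fold lower, against 1.95% of 8818 genes. S100a6 was at 806 and 556 CPM (-0.54, -0.61 to -0.46), short of the fold here and past it in 5 of 12 alternative settings. Past 1.5-fold higher was 1 of 7 as well, against 4.6% of genes: S100a9, whose ratio of 1.46 (0.60 to 2.42) turned to -1.41 without the 5 barcodes of each library richest in it. T cell markers in the B gate summed to 17.7 CPM (4 of 6 detected) and 30.5 CPM (6 of 6), activated T cell genes to 70.2 CPM (7 of 10) and 118 CPM (10 of 10), and erythroid genes to 270 CPM (2 of 2) and 0.356 CPM (1 of 2). What part these have in the B cell ratios was not tested.

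NK cells and neutrophils showed the smallest differences. In NK cells 0 of 6 counted members were past 1.5-fold in either direction, against 9.98% of 5328 genes, and log2 ratios ran from -0.06 (S100a4, -0.44 to 0.32) to 0.13 (Lgals3, -0.02 to 0.28). In neutrophils 0 of 5 were, against 12.2% of 1357 genes. With so few members counted, a count of 0 is near these shares. S100a8 had a log2 ratio of -0.27 (-0.30 to -0.24), S100a9 of -0.21 (-0.23 to -0.18) and S100a11 of 0.24 (0.13 to 0.35), and S100a6 (-0.03) and Lgals3 (-0.01) had intervals that include 0. Barcodes that met the neutrophil and the monocyte minimum and no other class were kept out of this gate as mixed, 4 in control with 3701 S100a8 and S100a9 UMIs and 2 in CD4-Cre with 5597. Other mixed barcodes with 5 or more such UMIs were not added. In control 1 with 314 met the B cell and neutrophil minima. In CD4-Cre 2 with 3784 met the T cell minimum besides those of neutrophils and monocytes. Besides those 2 minima, 1 with 180 met that of B cells and 1 with 120 those of T and NK cells. A further CD4-Cre barcode with 755 met the T cell, monocyte and macrophage minima. With the barcodes that met no other class counted as neutrophils, S100a8 was at -0.39, S100a9 at -0.35, S100a11 at -0.00 and Lgals3 at 0.33. Among all 13 alternatives S100a8 went down to -0.54, S100a9 down to -0.46 and Lgals3 up to 0.44, each past the fold in 0 of 13.

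In lymph node T cells S100a10 was found in most barcodes, while an S100a6 UMI was found in 2.63% and 2.27% of CD4-only barcodes. S100a10 was at 455 CPM in control and 447 CPM in CD4-Cre CD4-only T cells and at 469 and 445 CPM in CD8-only T cells. S100a11 was at 33.1 and 29.2 CPM in CD4-only and 74.7 and 73.9 CPM in CD8-only T cells. For these members the genotypes were within 1.5-fold in both gates.

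S100a6 was at 49.2 CPM (306 UMIs) in control and 26.1 CPM (309 UMIs) in CD4-Cre lymph node CD4-only T cells, which is a log2 ratio of -0.91 (-1.14 to -0.68). Lgals3 was at 7.87 CPM (49 UMIs) and 3.64 CPM (43 UMIs), which is a log2 ratio of -1.11 (-1.74 to -0.49). Lgals1 was at 211 and 157 CPM (-0.43, -0.54 to -0.33), and S100a4 at 5.62 and 5.25 CPM (35 and 62 UMIs). In lymph node CD4-only T cells 2 of 6 counted members were past 1.5-fold lower, against 4.36% of 9326 genes, with medians of -0.31 for members and -0.07 for all genes. In lymph node CD8-only T cells S100a6 was at 11.6 and 7.63 CPM (48 and 63 UMIs; -0.60, -1.17 to -0.03), and it was the 1 of 4 counted members past 1.5-fold lower, against 5.4% of 8609 genes.

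These lymph node differences rested on a handful of control barcodes. The 5 control CD4-only barcodes richest in S100a6 held 79.7% of its UMIs, 91 of them in 1 barcode, while in CD4-Cre the 5 richest held 41.4%. For Lgals3 the shares were 91.8% and 83.7%, and for Lgals1 33.5%, with 304 UMIs in 1 barcode, and 10.2%. Without the 5 richest barcodes of each library S100a6 was at 10.1 and 15.4 CPM, which is a log2 ratio of 0.61 (0.18 to 1.05), Lgals1 at 143 and 142 CPM (-0.01, -0.13 to 0.11), and Lgals3 at 4 and 7 UMIs. In CD8-only T cells S100a6 then had 4 and 34 UMIs, for a ratio of 2.07 (0.58 to 4.03) on the log2 scale. The sign of the S100a6 ratio therefore turned in both lymph node gates. The same 5 barcodes are a larger share of the smaller control gates.

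The richest barcodes held markers of activated T cells. In control 2 barcodes were among the 5 richest in S100a6, Lgals1 and Lgals3 alike, with a median of 30143.5 UMIs, against 4516 for the gate. Both held Foxp3 and the proliferation gene Mki67, and together they held 150 S100a6, 328 Lgals1 and 41 Lgals3 UMIs. All 5 control barcodes richest in S100a6 held at least 2 activated T cell markers, 3 held Foxp3, 3 held Mki67 and 0 held the myeloid gene Lyz2. Cd74, the leading gene of the lymph node B gate, was held by 1 of these 5, and by 1 of the 2 barcodes richest in all 3 genes. Deep barcodes are likelier to hold any marker, and no share at matched depth was computed. In CD4-Cre no barcode was among the richest in all 3 genes, and of the 5 richest in S100a6 2 held Foxp3, 1 Mki67 and 0 Cd74. Of the barcodes among the 5 richest of any of the 3 genes, 1 of 10 in control and 4 of 12 in CD4-Cre held Cd74.

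The lymph node Foxp3 stratum held 95 control and 222 CD4-Cre barcodes, and several of the rich barcodes were in it. S100a6 was at 398 and 78.7 CPM, which is a log2 ratio of -2.34 (-2.73 to -1.96), and Lgals1 at 829 and 251 CPM (-1.72, -1.95 to -1.50), while Lgals3 had 42 and 0 UMIs. Yet the share of Foxp3 barcodes with an S100a6 UMI was 9.47% (4.42% to 17.2%) and 5.86% (3.15% to 9.81%), and with a Lgals1 UMI 36.8% (27.2% to 47.4%) and 32.4% (26.3% to 39.0%). In the other stratum of the lymph node CD4-only gate the S100a6 ratio had the other sign, with 11 and 111 UMIs (2.81). Without the 5 richest Foxp3 barcodes of each library S100a6 was at 8.08 and 9.49 CPM (0.23, -1.61 to 2.38) and Lgals1 at -0.37 (-0.82 to 0.09). In the pancreas the same step left S100a4 at -0.86 in CD4-only and -1.0 in CD8-only T cells, and at -1.01 and -0.62 in their activated-marker strata. In the CD4-only other stratum it took S100a4 from -0.72 to 0.07 (-0.71 to 0.90), S100a6 from -0.82 to -0.27 (-0.52 to -0.02), Lgals3 from -0.82 to 0.42 (-0.26 to 1.15) and Lgals1 from -0.00 to 0.95 (0.59 to 1.33). In the Foxp3 stratum of the pancreas it took S100a4 from -0.39 to -0.23 (-0.70 to 0.26). In pancreas CD4-only T cells, though, it took Lgals1 to -0.03 and Lgals3 to -0.09.

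**Figure D4:**
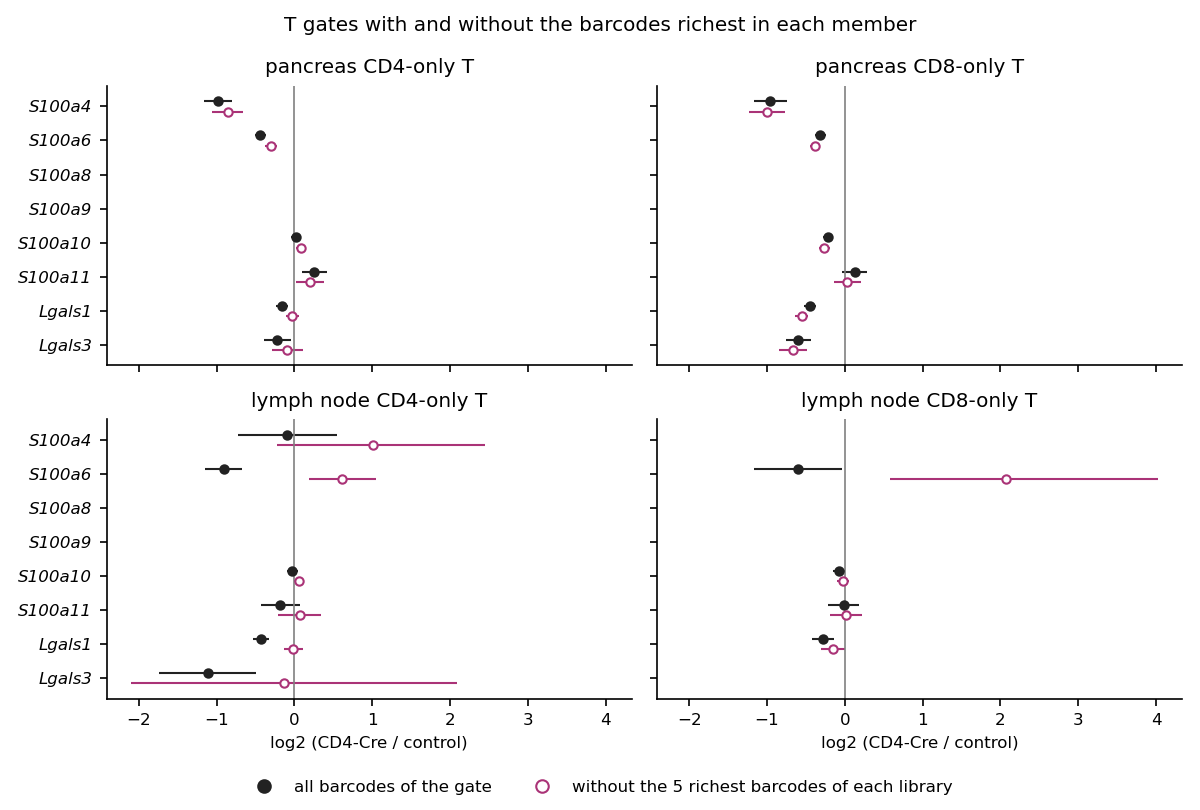
Log2 ratio of CD4-Cre over control in the 4 T gates for all barcodes (filled points) and without the 5 barcodes of each library richest in the member (open points), with exact 95% counting intervals; members under 50 UMIs over all barcodes are not drawn. In the pancreas S100a4 stays between -0.86 and -1.0, while in the lymph node S100a6 moves from -0.91 to 0.61 in CD4-only and from -0.60 to 2.07 in CD8-only T cells.

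Genes of the known partners and relatives were counted in the same way. The lists held 10 other genes with S100 symbols, 7 other galectins, 17 partners and receptors and 10 migrating and memory T cell genes. In macrophages, where S100a10 and S100a6 were higher, Anxa2, the annexin partner of S100a10, was at 305 and 661 CPM (1.11, 0.93 to 1.30). Emb was at 97.7 and 200.4 CPM (1.04) and Anxa1 at 145 and 249 CPM (0.78). These were the 3 of 12 counted partners and receptors past 1.5-fold higher, against 4.99% of all genes. Past it lower were 2 of 12, against 8.23% of all genes: Lgals3bp, which binds galectin-3, at 321 and 132 CPM (-1.28) and the scavenger receptor Cd36 at 185 and 80.4 CPM (-1.21). Of the migrating genes in macrophages 2 of 7 were past it higher, against 4.99% of all genes: Vim (0.60) and the chemokine receptor Ccr2 (0.59).

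In pancreas CD4-only T cells 0 of 10 migrating genes and 1 of 14 partners were past the fold in either direction, against 5.89% of all genes, so the count was near the background. The 1 partner was Havcr2, an inhibitory receptor, at -0.86 (26 and 32 UMIs). In CD8-only T cells the annexin gene Anxa1 was at -0.81 and Ccr2 at 154 and 89.6 CPM (-0.78), which made 1 of 14 partners and 1 of 10 migrating genes, near the 9.44% of all genes past the fold in either direction. B cells had 1 of 15 partners past the fold lower, against 1.95% of all genes, and 3 of 15 partners and 1 of 10 migrating genes past it higher, against 4.6%: Anxa1 was lower (-0.71) and Cd7 (2.33, 11 and 82 UMIs), Emb (1.19), Lgals3bp (0.80) and Ccr2 (1.45) were higher. In NK cells S1pr1, the lymphocyte egress receptor, was past the fold (0.78, -0.10 to 1.75, 15 and 40 UMIs), which made 1 of 10 migrating genes and 0 of 13 partners against 9.98% of all genes. In neutrophils, against 12.2% of all genes, 1 of 5 partners and 2 of 3 migrating genes were past it: Anxa1 (-0.73), Emp3 (-1.08) and Vim (0.60). In monocytes 0 of 11 counted partners and 0 of 8 migrating genes were, against 9.05% of all genes.

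In the lymph node Anxa2 was lower in both gates, at 21.4 and 14 CPM (-0.61) in CD4-only and 24.9 and 12.1 CPM (-1.04) in CD8-only T cells. Cxcr3, a chemokine receptor of effector T cells, was at -0.94 in CD4-only T cells, and Ahnak, a scaffold that binds the S100a10 and Anxa2 complex, at -0.82 in CD8-only T cells. The step without the 5 richest barcodes was run for the members only, so whether these related genes rest on a few barcodes was not tested. In CD4-only T cells 1 of 12 partners and 1 of 9 migrating genes were past the fold lower, against 4.36% of all genes, and in CD8-only T cells 2 of 12 and 1 of 9, against 5.4%, with Ahnak in both lists. Among the other genes with S100 symbols, S100pbp was past the fold lower in lymph node CD8-only T cells (-0.65). It is named for binding an S100 protein and is not an S100 gene itself. It was 1 of 2 counted genes of that list there, against 5.4% of all genes. No other galectin was past the fold in any of the 9 gates.

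Patterns most like those of the members were sought over 14 points, the 7 pancreas gates in 2 libraries, among 6609 genes, as Pearson's r of log2(CPM + 10). The points share libraries and gates, so r is a description only. The 2 neutrophil points weigh heavily on r for genes that are very high there, such as S100a8 and S100a9, or near absent, such as S100a4 and S100a10. Retnlg is itself a marker of the neutrophil gate. S100a8 was most like Retnlg, Lcn2 and Ngp and S100a9 most like Ngp, Wfdc21 and Ltf (each r of 0.999), all genes of neutrophils or their granules. S100a4 was most like Ank, Capn2 and Emp3 (r of 0.955 to 0.949), and S100a6 most like Prr13, Ostf1 and Adgre5 (0.965 to 0.943). Cox7b, Atp5g3 and Tusc3 were nearest to S100a10 (0.988 to 0.983), and Mid1ip1, Mfsd14b and Pygl to S100a11 (0.987 to 0.971). For Lgals1 the nearest were Dnajc1, AW112010 and Runx3 (0.984 to 0.964), and for Lgals3 Fcer1g, Tmsb4x and Metrnl (0.963 to 0.959). Between members r was 0.999 for S100a8 with S100a9, 0.912 for S100a6 with S100a11 and 0.883 for S100a4 with S100a10, and it was -0.375 for the neighbours S100a4 and S100a6.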

How the data were processed

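The data were 10x Genomics 5′ single-cell libraries of pancreas CD45+ cells and lymph node CD3 T cells, 1 library per group, and no replicate was available. The authors deposited raw UMI counts per gene and barcode, whole numbers with no normalization, made with Cell Ranger on mm10, per the submitters' processing notes, in matrices whose header names software version 3.0.0. The lowest total of a listed barcode was 500 or 501 UMIs. The counting settings are not given in the sources used here. Member symbols matched 1 row each, and genome positions came from GENCODE through the gene identifiers.

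Barcodes with at least 500 genes and at most 10% mitochondrial UMIs were kept. Doublets were scored by the Scrublet method (2 simulated doublets per barcode), and the highest-scoring 0.8% per 1000 barcodes were removed. Barcodes entered a gate by a minimum number of detected markers. Those that met several classes went to the class with the largest share of markers detected if this was at least 2 times the next, and were otherwise mixed. UMIs of a gate were summed and divided by the gate's total (CPM), with exact Poisson intervals. Ratios had exact binomial intervals and shares exact Clopper-Pearson intervals, all at 95% and for counting error only. A count of 0 was given a limit of 3 counts. Features with at least 50 UMIs over both libraries were counted and called past the fold at 1.5-fold. The ratio script was tested on simulated data.

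Named were all 8 members, up to 5 listed related genes per list and gate past the fold, and the 3 genes most like each member among those with at least 500 UMIs, by r of log2(CPM + 10). The members and lists were chosen with earlier results of these data known. Alternatives covered filters, doublets, gates, scaling (edgeR TMM, DESeq2 size factors, equal weight per barcode, other totals), the pseudocount, the UMI minimum, the fold and thinning. Chosen after seeing the data were the alternatives without the 5 richest barcodes, without barcodes of 5 or more S100a8 and S100a9 UMIs, and with barcodes that also met the monocyte minimum in the neutrophil gate. Software was Python 3.11.15 with numpy 2.4.6, scipy 1.17.1, pandas 2.3.3, scikit-learn 1.9.0 and matplotlib 3.10.9, and R 4.3.3 with edgeR 4.0.16 and DESeq2 1.42.0.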

Additional observations from a re-analysis of the deposited data

Results flagged for a closer look

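S100a8 and S100a9 were also counted in pancreas barcodes that the comparisons did not use because they met several classes or none. In mixed barcodes S100a8 stood at 1595 CPM in control and 1959 CPM in CD4-Cre. S100a9 stood at 1742 CPM and 2473 CPM there, and 5 control and 7 CD4-Cre mixed barcodes held 5 or more UMIs of both genes. In CD4-Cre barcodes that met no class S100a9 was at 33.8 CPM, with 32 UMIs of S100a8 and S100a9 in all, while the control barcodes of that class held 1 S100a8 UMI and 0 of S100a9.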

How the results depend on the processing

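No paired analysis was possible because each group holds 1 library. Depth limits members with few UMIs: S100a4 and Lgals3 in the lymph node, S100a10 and Lgals1 in neutrophils, and S100a8 and S100a9 outside them. Of 629 alternative values of the members' log2 ratios 548 stayed within the counting interval and 74 left it. The other 7 changed sign, which was counted only for members past the fold. Sign changes of members within the fold are among the 548 and 74. For example, S100a4 in lymph node CD4-only T cells went from -0.10 to 1.01 without the 5 richest barcodes. TMM and DESeq2 scaling shifted the median of all genes by -0.14 and -0.16 in neutrophils and by 0.13 and 0.12 in lymph node CD8-only T cells.

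S100a9 in B cells turned to -1.18 with doublet removal raised, -1.25 without barcodes meeting several classes and -1.41 without the 5 richest barcodes. In lymph node CD4-only T cells S100a6 turned to 0.61 without the 5 richest and Lgals3 to 0.29 with equal weight per barcode. In lymph node CD8-only T cells S100a6 turned to 0.81 with equal weight and to 2.07 without the 5 richest. For other causes than the barcodes left out or reweighted, the cause was not tested.

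The median of the members without the 5 richest was -0.060 in pancreas CD4-only, -0.47 in pancreas CD8-only, 0.061 in lymph node CD4-only and -0.0052 in lymph node CD8-only T cells. With equal weight it was -0.73 in pancreas CD8-only, 0.042 in lymph node CD4-only and -0.0095 in lymph node CD8-only T cells, and with doublet removal raised -0.30 in pancreas CD8-only T cells.

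The number of members past the fold at 2-fold was 0 in pancreas CD4-only, 0 in pancreas CD8-only, 1 in lymph node CD4-only and 0 in lymph node CD8-only T cells. The other settings kept the 1.5-fold line. In pancreas CD8-only T cells the number past 1.5-fold was 1 without barcodes meeting several classes, with TMM and with DESeq2 factors. It was also 1 with other totals and with a pseudocount, and 4 with equal weight and with a minimum of 1 UMI. In lymph node CD4-only T cells it was 0 with equal weight and 1 with a pseudocount. In lymph node CD8-only T cells it was 0 with all barcodes listed, without doublet removal, with TMM, with DESeq2 factors, with other totals and with a pseudocount, and 4 with a minimum of 1 UMI. The counts at 1 UMI include members near the floor. In lymph node CD8-only T cells these were S100a4 (3 and 2 UMIs), S100a8 (1 and 3) and S100a9 (2 and 2). In pancreas CD8-only T cells they were S100a8 (2 and 2 UMIs) and S100a9 (10 and 6). The share of all genes past the fold was not computed at these settings, so these counts have no background beside them. Unthinned shares of S100a9 were 0.897% and 0.748% of pancreas CD4-only and 2.26% and 0.900% of CD8-only T barcodes.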
